A study of Sorghum bicolor with 8 samples.

Results

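The sucrose transporters SUT1 to SUT6 of sorghum are a family of 6 genes. They were picked by gene identifier, and all 6 were among the 34129 genes of the deposited table. The table carries identifiers only, and the SUT numbers are those in use for the sorghum family. Transcripts were measured by stranded mRNA sequencing of green prop roots, nodal roots that form above the soil, in Sorghum bicolor cultivar BRS330. One group grew in elevated CO2 (800 µmol per mol, 4 libraries) and the other in ambient CO2 (400 µmol per mol, 4 libraries). Both groups were short of water: plants that had received 1.5 L per day were cut to 0.45 L per day at 60 days after planting and kept there for 30 days, so no group with full irrigation enters the comparison. Whether each library stands for its own plant is not in the labels, and p-values then measure only the spread between these libraries, which may be technical. The deposited level of a gene in a group is 1 pooled FPKM value, a fragment count corrected for transcript length and sequencing depth, so no SD can be given, and read depth is unknown. The tissue label was not checked against marker genes, because the identifiers come without names.

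SUT proteins are proton-coupled carriers that move sucrose across a membrane together with protons. In grasses they load sucrose into the phloem of source leaves, recover sucrose that leaks out along the transport path, and help to take it up in sinks such as roots, stems and grain. The members differ in place and task: in maize, SUT1 is needed for phloem loading in leaves, and in rice and barley, SUT2 sits in the membrane of the vacuole. The comparison asks how a higher supply of CO2 alters transcript levels in prop roots of plants under drought.

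Transcripts of SUT1 and SUT6 fell under elevated CO2, while those of SUT2 and SUT4 did not pass the authors' test and SUT3 and SUT5 were not tested. SUT1, the most abundant member in ambient CO2, reached 68.6 FPKM in elevated and 119.9 FPKM in ambient CO2. SUT6, a minor member, reached 0.970 FPKM in elevated and 3.88 FPKM in ambient CO2. No member rose by the authors' Cuffdiff test, either at q under 0.05 or at an unadjusted p under 0.05. At q under 0.05, 2.42% of all tested genes were higher, so with 4 tested members the lack of a rise says little. The unadjusted limit was passed by 20.6% of tested genes in either direction, and the share that rose was not counted. In whole prop roots, fewer cells of a type and less RNA per cell cannot be told apart.

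The authors tested 4 of the 6 members, and 2 of these 4 had a q-value under 0.05. Over all 16280 tested genes the share called was 11.5%, with 9.04% lower and 2.42% higher under elevated CO2. The share varied with level, taken as FPKM in the higher group. From 50 to 150 FPKM, where SUT1, SUT2 and SUT4 lie, 17.5% were called, 13.5% as lower. From 2 to 5 FPKM, where SUT6 lies, 7.70% were called, 6.40% as lower. Both called members were lower, and with 4 tested genes the count says little about the family as such. Values of 3 of the 4 were lower in elevated CO2, as were those of 53.4% of all tested genes. The median log2 ratio of elevated over ambient CO2 was -0.52 for the 4 tested members and -0.03 for all tested genes. The 2 members without a test do not enter the members' median. For tested genes from 50 to 150 FPKM the median was -0.12, and for those from 2 to 5 FPKM it was 0.02.

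**Figure D1:**
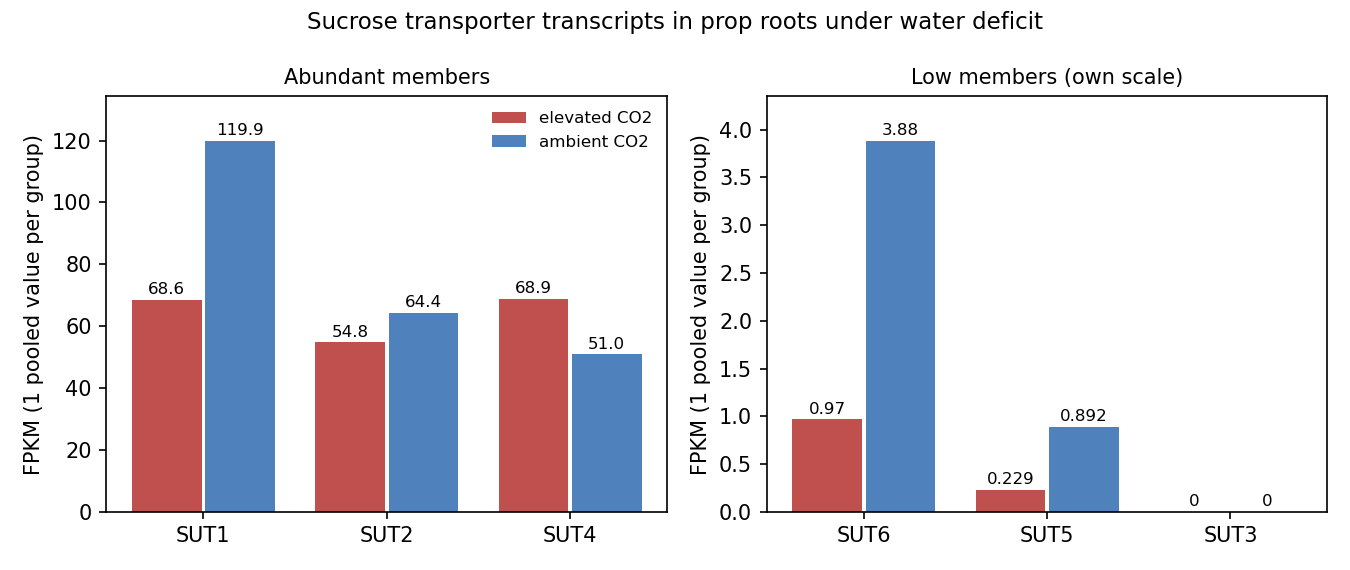
FPKM of each sucrose transporter gene (1 pooled value per group of 4 libraries, no error bars) in elevated CO2 (red) and ambient CO2 (blue); the abundant members are on the left and the low members, on their own scale, on the right. SUT1 stands at 68.6 FPKM in elevated and 119.9 FPKM in ambient CO2, and SUT4 is the one member with a higher value in elevated CO2.

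SUT1 (Sobic.001G488700, chromosome 1, 75891907 to 75897861) showed the largest absolute difference in the family. Its 68.6 FPKM in elevated CO2, against 119.9 FPKM in ambient CO2, gave a difference of -51.2 FPKM, and the level fell by 42.7%. In the authors' deposited table this is a log2 change of -0.80 with p = 0.0031 and q = 0.0313. SUT1 had the 1653rd highest value of all genes in elevated CO2 and the 1008th highest in ambient CO2.

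Changes as large as that of SUT1 were not rare at its level. Of 1906 other tested genes whose higher FPKM value was within a factor of 2 of that of SUT1, 374 (19.6%) were called, and 267 (14.0%) had a lower log2 ratio than SUT1. Among the 96 of them whose log2 ratio was also within 0.1 of that of SUT1, 78 (81.3%) were called. The p-values of the 96 in the authors' deposited table lay between 0.00025 and 0.420. The 96 were picked by the level and ratio of SUT1 itself, so their count is no separate evidence about SUT1. The call of SUT1 was not a strict one: 255 of the 1865 called genes had a larger q, and at q under 0.01, which 7.12% of tested genes passed, SUT6 was called and SUT1 was not. With a further minimum of 1 for the absolute log2 ratio, passed by 8.51% of tested genes, again SUT6 was called and SUT1 was not.

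SUT6 (Sobic.007G214500, chromosome 7, 64300793 to 64303945) showed the largest ratio among the tested members. With 0.970 FPKM in elevated and 3.88 FPKM in ambient CO2, its level fell by 75.02%. The authors' deposited table gives a log2 change of -2.00 with p = 5e-05, the smallest p in the table, and q = 0.00112. Of the 726 called genes at this smallest p none can be ranked against another by p. The log2 ratios of 1.74% of all tested genes were lower than that of SUT6. Of 5047 other tested genes whose higher FPKM value was within a factor of 2 of that of SUT6, 428 (8.48%) were called. Among the 5047, 121 (2.40%) had a lower log2 ratio than SUT6. SUT6 is scarce in this tissue, being 70.8 times less abundant than SUT1 in elevated CO2 and 30.9 times less in ambient CO2, and a pseudocount of 1 FPKM brings its log2 change to -1.31.

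SUT4 (Sobic.008G193300, chromosome 8, 62665982 to 62671469) was the one member with a higher value in elevated CO2. It belongs, by its rice and maize counterparts, to the same branch of the transporter family as SUT2 of Arabidopsis. SUT4 reached 68.9 FPKM in elevated and 51.0 FPKM in ambient CO2, a log2 ratio of 0.43 that did not pass (p = 0.0657 and q = 0.291 in the authors' deposited table). Of 3132 other tested genes whose higher FPKM value was within a factor of 2 of that of SUT4, 484 (15.5%) were called. Among them, 163 had a positive log2 ratio within 0.1 of that of SUT4. Of these, 0 were called by the authors' Cuffdiff test, and their lowest p was 0.0229. The 163 were picked by the level and ratio of SUT4 itself, so their count is no separate evidence about SUT4.

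SUT2 (Sobic.004G353600, chromosome 4, 68169078 to 68173814), whose rice and barley namesakes are vacuolar, had the log2 ratio nearest to 0 among the 4 tested members. It reached 54.8 FPKM in elevated and 64.4 FPKM in ambient CO2, a log2 ratio of -0.23 that did not pass (p = 0.321 and q = 0.735 in the authors' deposited table). Of 609 other tested genes of similar level and log2 ratio, by the same limits, 0 were called by the authors' Cuffdiff test. Their p-values by that test ran from 0.133 upward. The 609 were likewise picked by the level and ratio of SUT2 itself, so their count is no separate evidence about SUT2. No interval can be given for the difference of SUT2 or SUT4, because the table holds no measure of the spread between libraries.

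**Figure D2:**
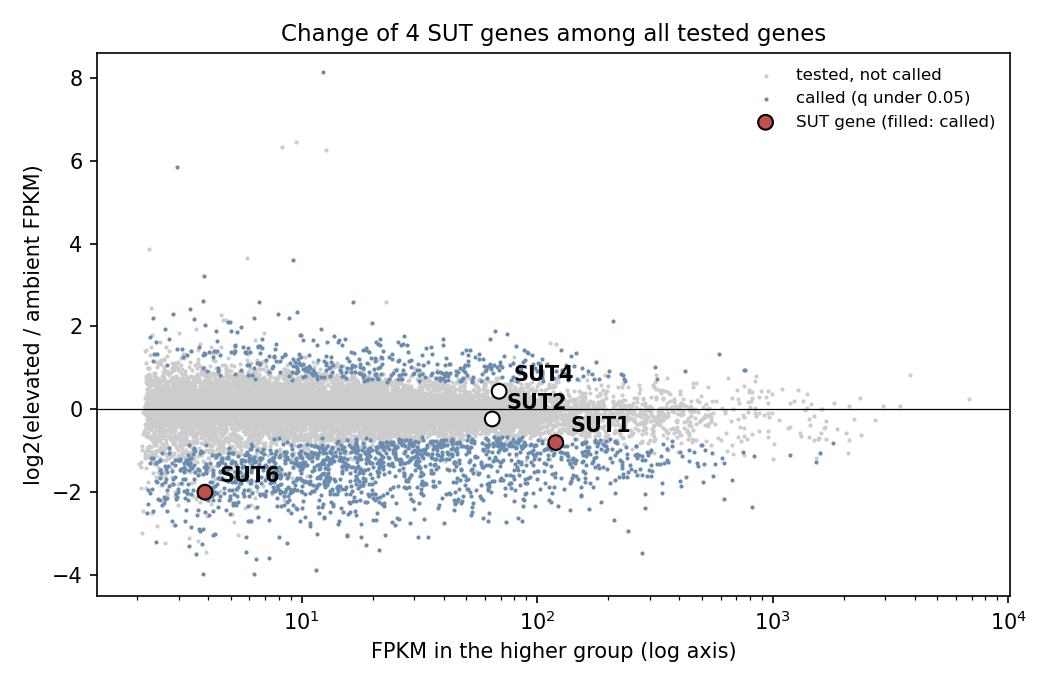
Log2 ratio of elevated over ambient FPKM (vertical axis) against FPKM in the higher group (horizontal axis, log scale) for all tested genes with a defined ratio; blue points are called genes, grey points are not, and large circles are the 4 tested SUT genes, filled where called. SUT1 at -0.80 and SUT6 at -2.00 lie among called genes, while SUT4 at 0.43 and SUT2 at -0.23 lie among genes that were not called.

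SUT5 and SUT3 were too low to be tested. SUT5 (Sobic.004G190500, chromosome 4, 54229191 to 54232507), whose rice namesake is a carrier of high affinity for sucrose, was listed at 0.229 FPKM in elevated and 0.892 FPKM in ambient CO2. The log2 ratio of these values is -1.96, without a test, and it rests on very low levels: with a pseudocount of 1 FPKM it is -0.62. No gene under 2.03 FPKM in its higher group was tested by the authors. SUT3 (Sobic.001G254000, chromosome 1, 28196912 to 28200621) was listed at 0 in both groups, as were 7196 genes (21.1% of the table). Whether SUT3 is absent or below what the libraries could detect cannot be told without their depth.

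The order of levels differed between the groups. In elevated CO2 it ran SUT4, SUT1, SUT2, SUT6, SUT5 and SUT3, with SUT4 and SUT1 at 68.9 and 68.6 FPKM. In ambient CO2 it ran SUT1, SUT2, SUT4, SUT6, SUT5 and SUT3. The 3 abundant members lay within a factor of 1.26 of each other in elevated CO2 and of 2.35 in ambient CO2. SUT4 stood at 1.003 times SUT1 in elevated and at 0.425 times SUT1 in ambient CO2. The log2 ratios of the 2 genes differ by 1.24, with SUT1 the lower, and this difference was not tested. Without the spread between libraries it cannot be said which neighbours in either order differ.

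SUT1, SUT2 and SUT4 made up nearly all transcripts of the family, 99.4% of the summed FPKM in elevated and 98.0% in ambient CO2. SUT1 held 35.5% of the sum in elevated and 49.9% in ambient CO2. SUT4 held 35.6% in elevated and 21.2% in ambient CO2. SUT2 held 28.3% in elevated and 26.8% in ambient CO2. SUT6 held 0.501% in elevated and 1.62% in ambient CO2, and SUT5 held 0.118% in elevated and 0.372% in ambient CO2.

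**Figure D3:**
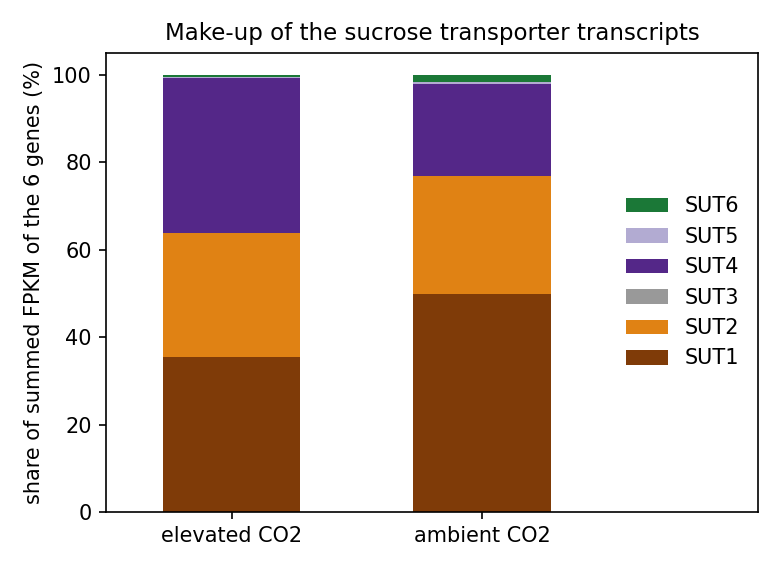
Share of each gene in the summed FPKM of the 6 sucrose transporter genes, in percent, in elevated CO2 (left bar) and ambient CO2 (right bar). SUT1 (brown) takes 35.5% in elevated and 49.9% in ambient CO2, and SUT4 (purple) 35.6% in elevated and 21.2% in ambient CO2.

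The summed level of the family was 193.5 FPKM in elevated and 240.01 FPKM in ambient CO2, a log2 ratio of -0.31 that was not tested. Without SUT1, the other 5 genes came to 124.8 FPKM in elevated and 120.1 FPKM in ambient CO2. FPKM summed over all genes was also lower, at 579715 in elevated and 652743 in ambient CO2. As a share of all FPKM, the family held 0.0334% in elevated and 0.0368% in ambient CO2.

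None of the 6 loci overlapped another gene's locus. Up to 2 annotated genes on each side of every member gave 23 neighbours, of which the authors tested 9. By the authors' Cuffdiff test, 0 of these 9 were called at q under 0.05 (11.5% of all tested genes), and 1 passed an unadjusted p under 0.05 (20.6% of all tested genes), so with 9 genes these counts are near the background. In 6 of the 9 the log2 ratio was within 0.1 of 0. Both tested neighbours of SUT1 were among those 6: Sobic.001G488500 had 108.0 FPKM in elevated and 109.7 FPKM in ambient CO2, and Sobic.001G488600 had 4.403 FPKM in elevated and 4.449 FPKM in ambient CO2. The 2 tested neighbours of SUT2, Sobic.004G353400 and Sobic.004G353500, had log2 ratios of -0.00 and -0.03. Beside SUT5, Sobic.004G190600 and Sobic.004G190700 had log2 ratios of 0.05 and 0.01. None of the 4 neighbours of SUT3 was tested.

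**Figure D4:**
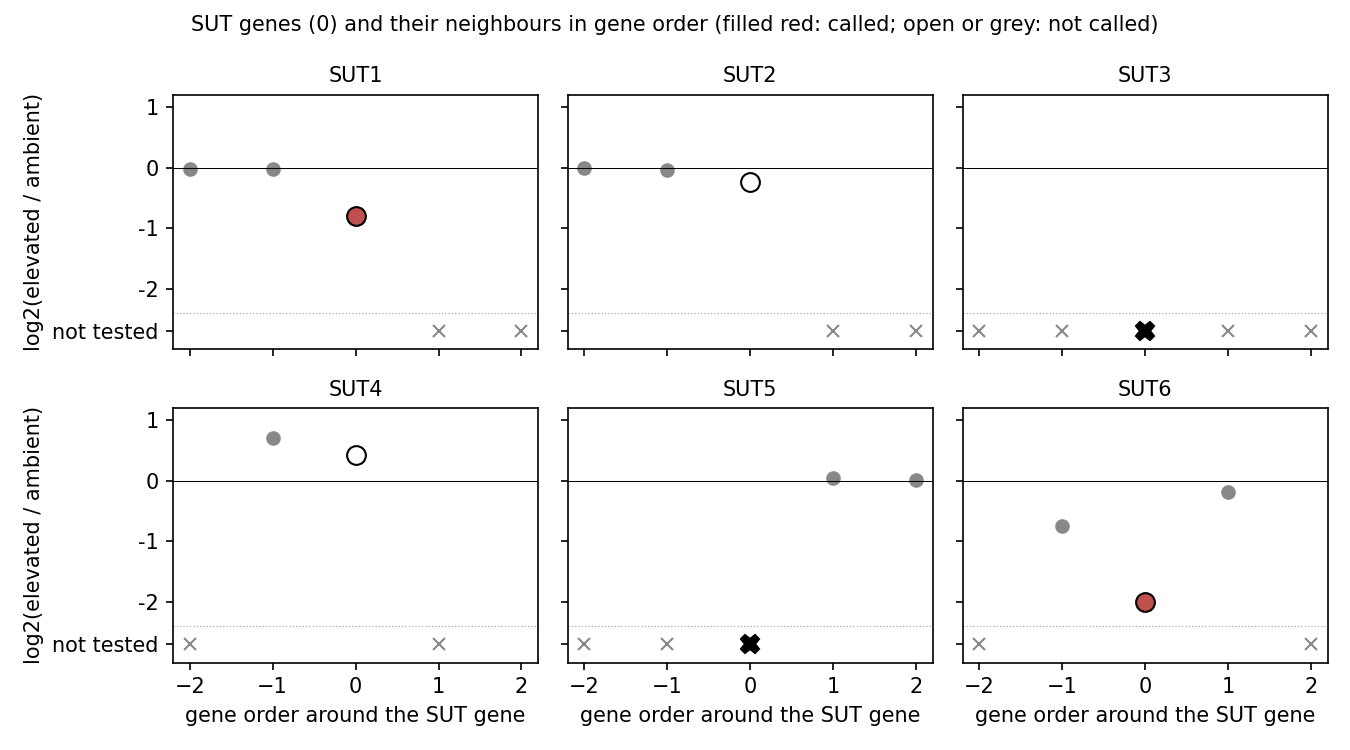
Log2 ratio of elevated over ambient FPKM for each SUT gene (large symbol at position 0) and up to 2 annotated genes on each side in chromosome order; red filled circles are called, open and grey circles are tested but not called, and crosses in the bottom strip are genes without a test. The tested neighbours of SUT1 lie at -0.02, whereas SUT1 lies at -0.80.

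With 2 group values per gene, likeness of pattern is a weak measure, and many genes match. Likeness was taken as the distance between log2 FPKM values over the 2 groups, among 16273 tested genes outside the family with values above 0. The nearest gene to SUT1 was Sobic.009G183300 (67.8 FPKM in elevated and 121 FPKM in ambient CO2, q = 0.0135 in the authors' deposited table), at a distance of 0.0221. Nearest to SUT6 was Sobic.007G042700 (0.950 FPKM in elevated and 3.79 FPKM in ambient CO2, q = 0.00112 in the authors' deposited table), at a distance of 0.0457. For SUT4 it was Sobic.010G001600 (68.1 FPKM in elevated and 50.6 FPKM in ambient CO2), and for SUT2 it was Sobic.003G436700 (54.8 FPKM in elevated and 64.6 FPKM in ambient CO2). Within a distance of 0.25 there were 47 genes around SUT1, 27 around SUT6, 85 around SUT4 and 299 around SUT2.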

How the data were processed

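Stranded mRNA libraries (Illumina TruSeq), 4 per CO2 group, were made from the RNA of 100 mg of tissue, per the labels' protocols. Reads were handled with Cuffdiff, Cufflinks 2.2.1, HISAT2 and Trimmomatic 0.36, listed without settings or order in the submitters' processing notes. The suffix of the identifiers is 3.2. The genome build, the library normalization and the strand setting of the counting are not given in the sources used here. Deposited by the authors were 1 full table and 4 subsets of it, and only the full table was used. It holds the authors' pooled FPKM per group. The authors' log2 ratio (elevated over ambient), p-value and q-value were taken as deposited, and the deposited test statistic, a score, is not printed.

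From the FPKM values, differences, shares of the family sum, ranks and distances were computed with Python 3.11.15, pandas 2.3.3 and numpy 2.4.6. A gene was called when the authors had tested it and the deposited q was under 0.05. The deposited log2 ratios of the members differed from their FPKM ratios by at most 3.45e-06, and q recomputed over all tested genes by the Benjamini-Hochberg method differed from the deposited q by at most 5.25e-07. The adjustment and the distance were tested on simulated data. Loci are printed as deposited.

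The members, the rules and the limits were chosen with earlier results of these data known. Named genes are the 6 members, neighbours within 2 genes on either side that the authors tested, and the nearest gene of each tested member. The comparisons with genes of similar level were added after the members' values had been seen. Lists of other sugar transport and sucrose metabolism genes, and marker lists, were planned by product name and have no result: of 32945 genes in the RefSeq table used (assembly Sorghum_bicolor_NCBIv3), which lacks product names, 0 matched an identifier.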

Additional observations from a re-analysis of the deposited data

How the results depend on the processing

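The count of 2 called members was 2 by unadjusted p under 0.05 (passed by 20.6% of tested genes) and by a recomputed q. It was 1 at q under 0.01 (SUT6, 7.12% of tested genes). It was also 1 when q under 0.05 and an absolute log2 ratio of at least 1 were required (SUT6, 8.51% of tested genes). When q was recomputed over genes of at least 5 FPKM it was 1, where SUT6 drops out by construction and SUT1 has q = 0.0289. The share of all genes called under that last limit was not counted. The log2 change of SUT1, -0.80, thus did not pass in 2 alternatives. Pseudocounts, centring and rescaling turned the sign of none of the 5 defined member ratios; they carry no test of their own, so they say nothing about the calls. Rescaling each group to the same FPKM sum adds 0.17 to every log2 ratio, which gave -0.63 for SUT1, -1.83 for SUT6, 0.61 for SUT4 and -0.06 for SUT2. The untested ratio of SUT5 was -0.62 with a pseudocount of 1 FPKM, -1.59 with 0.1 FPKM, -1.93 after centring on the median and -1.79 after rescaling. The log2 ratio of the family sum was -0.30 with a pseudocount, -0.14 after rescaling and 0.06 without SUT1, which reverses it. Without SUT1, elevated shares were 43.9% for SUT2, 55.2% for SUT4, 0.184% for SUT5 and 0.777% for SUT6, against ambient shares of 53.6%, 42.4%, 0.742% and 3.23% in the same order. Neighbours called numbered 1 by unadjusted p and 0 in the other alternatives, which were added after seeing the data, as was a pseudocount for the nearest genes, which stayed the same. No paired analysis was possible because values of single libraries were not at hand. Leaving out libraries in turn was not run either, and whether 1 library sets a value cannot be told apart from a group difference. Read depth is unknown.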

Other observations

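Both SUT6 and SUT4 have a tested gene very close by whose log2 ratio has the same sign, a pair picked after the values had been seen. A shared sign is not particular to them. The tested neighbours of SUT1 (both at -0.02) and of SUT2 (-0.00 and -0.03) also had negative ratios, though near 0. The genes closest to SUT1, SUT2 and SUT5 were not tested. Sobic.004G353500, a tested gene 1654 bp from SUT2, had a log2 ratio of -0.03 (q = 0.987 in the authors' deposited table). The gene closest to SUT2, at 191 bp, had 0.603 FPKM in elevated and 0.743 FPKM in ambient CO2. Its log2 ratio of -0.30 has the same sign as that of SUT2. The genes closest to SUT1 and SUT5, at 480 and 579 bp, were listed at 0 in both groups. Sobic.007G214400 ends 79 bp from the start of the SUT6 locus (chromosome 7, 64300016 to 64300714) and had 19.0 FPKM in elevated and 31.9 FPKM in ambient CO2. Its log2 ratio of -0.75 had p = 0.0305 and q = 0.170 in the authors' deposited table, so it did not pass. Its level was higher than that of SUT6 in both groups. On the other side of SUT6, 5831 bp away, Sobic.007G214600 had 3.63 FPKM in elevated and 4.13 FPKM in ambient CO2 (q = 0.916 in the authors' deposited table). Sobic.008G193200 ends 235 bp from the start of the SUT4 locus (chromosome 8, 62664619 to 62665747). It had 2.91 FPKM in elevated and 1.79 FPKM in ambient CO2. Its log2 ratio of 0.70 did not pass (p = 0.159 and q = 0.509 in the authors' deposited table). The table gives no strand, and whether reads of such close genes were assigned to each other was not tested.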
